A study of Mus musculus with 4 samples.

Results

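Non-dividing Lgr5 stem cells of the mouse distal small intestine were picked out cell by cell from single-cell RNA counts. A cell was counted as one when it had at least 2 unique molecular identifiers (UMIs, counted RNA molecules) of Lgr5, at most 1 UMI of the cycle genes Mki67 and Top2a together, and 0 UMIs of Atoh1. The goblet genes Muc2, Zg16, Fcgbp and Clca1 also had to stay under 1% of its gene UMIs, and the Paneth genes Lyz1, Defa17 and Defa24 under 0.5%. Of 5452 barcodes, 2011 had at least 1000 gene UMIs, at least 500 genes, under 20% mitochondrial UMIs and a top hashtag of at least 60% of hashtag counts. The Lgr5 limit left 502 of these, the cycle limit 217, the Atoh1 limit 203, the goblet limit again 203 and the Paneth limit 202. These 202 cells are 10.0% of the 2011. The other 1809 cells that passed the same filter are the main comparison. Within them, 259 cells met every limit but the cycle one (dividing Lgr5 cells) and 431 were dividing cells with 0 Lgr5 UMIs that met the remaining limits.

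All 8 mice carried the Lgr5-EGFP-IRES-CreERT2 allele and the Rosa26-mTmG reporter, and all were given 4-OH-tamoxifen. The recombinase is made under the control of Lgr5, so labelling starts in Lgr5-expressing cells, and their progeny keep the reporter's GFP. Cells sorted as GFP-high (clones) and cells sorted as GFP-negative (control epithelium) were taken from the same mice, from mice 1 to 4 at 48 h and from mice 5 to 8 at 72 h after labelling. Villi had been scraped off, and each mouse had its own hashtag antibody. Clone cells of mice 3, 4, 7 and 8 and control cells of mice 1, 2, 5 and 6 shared pool 1, and the opposite sets shared pool 2. No group was without the 2 alleles or without 4-OH-tamoxifen, and the age of the animals is not given in the sources used here. EGFP from the Lgr5 allele has the same colour as the recombined reporter, so whether the sort also parted cells by their Lgr5 level cannot be told apart from labelling. This touches every comparison of clones with control cells given here.

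Lgr5 encodes a receptor for R-spondins, secreted proteins that strengthen Wnt signalling, and it marks the columnar stem cells wedged between Paneth cells at the crypt base. These cells renew the epithelium by dividing, their daughters move up into a zone of fast-dividing progenitors, and Notch signalling keeps them from entering the secretory path that Atoh1 starts. Most crypt base stem cells are in cycle, so a cell with few transcripts of Mki67, which marks cycling cells, or Top2a, the topoisomerase made in the later cycle, may be between divisions or at rest.

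The 202 cells held a median of 18351 gene UMIs (1270 to 40127) and a median mitochondrial share of 6.33%. The medians were 19626 and 6.99% in the other 1809 cells, 24467 UMIs in dividing Lgr5 cells, and 15624 UMIs and 12.4% in dividing cells without Lgr5. Of the 202, 110 were clone cells and 92 control cells. Only 9 were clone cells at 48 h, and the clone cells of mouse 3 at 48 h had a median of 1638 UMIs over all cells that passed. The pools held 30278443 and 28050962 gene UMIs, and 1 barcode sequence occurred in both. No doublet caller was run; the hashtag limit removes many doublets of 2 mice but none of 1 mouse. For levels, UMIs were summed per mouse and gate and scaled to counts per 1000000 gene UMIs (CPM); 12 sums held at least 5 of the cells, namely clones of mice 5 to 8 and control cells of mice 1 to 8.

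Markers that the rule did not use were checked first. Olfm4 (chr14:79984081-80023139, GRCm38), a secreted glycoprotein of crypt base cells, had a UMI in 98.5% of the 202 cells, and Smoc2 (chr17:14279506-14404790), a matricellular protein, in 93.1%. Ascl2 (chr7:142966829-142969264), a transcription factor that sets the stem cell programme, had a UMI in only 43.1%. All 3 were found together in 83 cells, 2 of them in 108, 1 in 9 and none in 2. In dividing Lgr5 cells the shares of Olfm4, Smoc2 and Ascl2 were 99.6%, 97.3% and 62.2%, so these markers do not set the 202 cells apart from them. In all other cells they were 72.7%, 63.1% and 19.0%. In the 102 cells in which enterocyte markers made up at least 1% of gene UMIs, the shares were 50.0%, 14.7% and 0.980%, at a median of 25754.5 UMIs. Thinned to 5000 UMIs per cell, which leaves out 5 of the 202 cells and 11 of the 102, Olfm4 was found in 97.5% against 17.6%, Smoc2 in 73.6% against 3.30% and Ascl2 in 16.2% against 0% (0 of 91 cells). The thinned shares were 98.8%, 69.6% and 21.0% in dividing Lgr5 cells and 52.1%, 36.3% and 7.68% in all other cells. Goblet and Paneth transcripts were found in the 202 cells as well, and nothing is read from them. Free RNA can give such UMIs in droplet data, and its part here was not tested. Muc2 had a UMI in 44.6% of the 202 cells and in 41.2% of the enterocyte-marker-rich cells, and Defa24 in 80.2% and 60.8%. After thinning the Muc2 shares were 18.3% and 7.69% and the Defa24 shares 47.2% and 24.2%. Immune, endothelial, stromal and red cell markers were close to 0: their lists summed to 4.93, 14.1, 0.274 and 0.0969 CPM on average.

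Olfm4 had 5636, 6854, 6531 and 6600 CPM in the cells of clones of mice 5 to 8, and 7517, 5019, 6826, 6182, 6081, 5069, 7899 and 5515 CPM in those of control mice 1 to 8. The clone sums lay inside the control range. Smoc2 had 279, 256, 327 and 275 CPM in the clones and 185 to 365 CPM in the control sums, and Ascl2 34.8 to 78.2 CPM in the clones and 11.2 to 127 CPM in the control sums. Ascl2, which rested on 1 to 36 UMIs per sum, spread further than Olfm4, and its clone sums also lay inside the control range. Lgr5 itself (chr10:115450311-115587780), the gene that chose the cells, had 239 to 380 CPM over the 12 sums and a median of 4 UMIs per cell (up to 26).

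**Figure D1:**
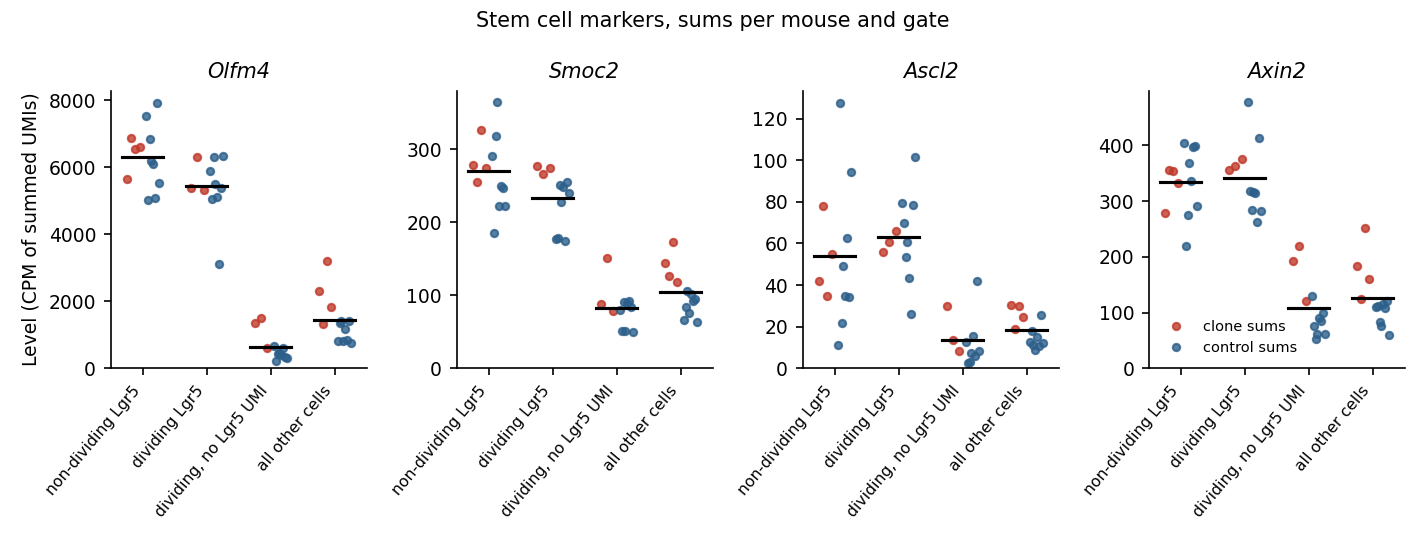
Olfm4, Smoc2, Ascl2 and Axin2 in CPM (vertical axes) in non-dividing Lgr5 stem cells, dividing Lgr5 cells, dividing cells without Lgr5 and all other cells that passed. Each point is the sum of a mouse and gate, clones in red to the left of control cells in blue, and each line is the mean over sums. Olfm4 averaged 6311 CPM in the non-dividing Lgr5 stem cells and 1434 CPM in all other cells, and within the non-dividing Lgr5 stem cells the clone points lie inside the control range.

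The limits of the rule cut through a gradient. Cells with exactly 2 Lgr5 UMIs (49 cells) had 4511 CPM of Olfm4, and those with 10 or more (25 cells) 7404 CPM. The 64 cells just outside, with 1 Lgr5 UMI, had 3117 CPM, and the 348 cells that met all other limits with 0 Lgr5 UMIs had 471 CPM. At the cycle limit, Olfm4 stood at 6411 CPM in the 81 cells with 1 UMI of Mki67 and Top2a together and at 6687 CPM in the 39 cells with 2. The 6 cells kept out by Atoh1 alone had 9503 CPM of Tff3, the trefoil peptide of goblet cells, against 249 CPM in cells with 2 Lgr5 UMIs. Cells with fewer Lgr5 UMIs were also shallower, with medians of 12214 UMIs at 2 Lgr5 UMIs and 9104 UMIs (9103.5) at 1; the part of depth in this gradient was not tested.

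Set against all other cells in the same mouse and gate, most crypt base genes were higher in every sum. Of 6014 genes with at least 20 CPM on average, 328 (5.45%) were higher and 555 (9.23%) lower in the cells in every one of the 12 sums; since the rule parted these cells, these counts are a description. Of 28 listed crypt base genes, 22 were measured besides Lgr5, 16 of them higher in every sum and 0 lower, with a median log2 ratio of 1.37, against 0.0019 over all measured genes. Olfm4 averaged 6311 ± 907 CPM in the cells and 1434 ± 718 CPM in all others (SD, n = 12 sums). Pdgfa, a growth factor ligand, averaged 472 ± 131 and 105 ± 56.5 CPM, and Slc12a2, a sodium-potassium-chloride cotransporter, 1656 ± 300 and 771 ± 234 CPM. Edn1 (chr13:42301476-42307990), which encodes the peptide endothelin-1, had the highest ratio of these 328 genes, with 566 ± 294 CPM in the cells and 109 ± 70.1 CPM in all others. Edn1 ranged over the cells' own sums from 59.9 CPM in control cells of mouse 8 to 1055 CPM in control cells of mouse 5, and was higher than in the other cells of the same mouse and gate each time. Scn2b, a sodium channel subunit, Igfbp4, a binding protein of insulin-like growth factors, the cell adhesion gene Jaml and Cited4 were also 3.58 to 4.87 times as high in the cells.

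Wnt feedback genes and targets followed. Of 12 measured, 8 were higher in every sum and 0 lower. Axin2, a negative feedback regulator of Wnt signalling, averaged 334 ± 57.6 CPM in the cells and 126 ± 52.2 CPM in all others, and Sp5, a transcription factor gene and direct Wnt target, 65.7 ± 27.2 and 13.02 ± 7.18 CPM (SD, n = 12 sums). Rnf43, which removes Wnt receptors from the membrane, averaged 141 and 60.4 CPM, and Mecom, a transcription factor gene, 103 and 35.6 CPM. Notum, a secreted Wnt inhibitor, had 0 CPM in the cells, and Nkd1, another feedback inhibitor, 5.36 CPM.

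The promoters of genes of this group are shown because TCF factors, through which Wnt acts, bind DNA that contains CTTTGA. The 250 bases before the start of 13 genes were searched (RefSeq, GRCm38.p6). Olfm4 among them is a crypt base gene that is not in the Wnt list. CTTTGA or, on the other strand, TCAAAG was found in the stretches of Sp5 and Mecom, and in capitals below it marks each match. It was not found in those of Axin2, Rnf43, Nkd1, Lef1, Ephb2, Ephb3, Cd44, Ascl2, Kcne3 and Olfm4. The Tcf7 stretch had no match either, but it holds an open reading frame from an ATG to its end. It thus reads as coding rather than upstream sequence, and nothing is read from it. Of all 27025 RefSeq promoters of that length, 3797 (14.1%) hold it. The Sp5 stretch lies at chr2:70474673-70474922 on the plus strand and the Mecom stretch at chr3:30509760-30510009 on the minus strand.
Sp5: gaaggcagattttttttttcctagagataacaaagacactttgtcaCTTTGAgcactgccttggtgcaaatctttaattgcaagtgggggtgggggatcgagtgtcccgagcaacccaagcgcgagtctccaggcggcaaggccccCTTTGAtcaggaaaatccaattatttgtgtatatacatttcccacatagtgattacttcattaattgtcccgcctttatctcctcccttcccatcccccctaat
Mecom: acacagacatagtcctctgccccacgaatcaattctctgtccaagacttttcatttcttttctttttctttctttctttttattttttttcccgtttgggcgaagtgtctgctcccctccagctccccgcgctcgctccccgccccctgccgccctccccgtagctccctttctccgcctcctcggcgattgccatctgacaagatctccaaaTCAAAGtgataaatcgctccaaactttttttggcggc

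On the lower side, all 11 measured goblet genes outside the rule were lower in every sum. Agr2, an isomerase of the endoplasmic reticulum in mucus cells, averaged 91.9 ± 44.7 CPM in the cells and 6193 ± 2842 CPM in all others, and Tff3 191 ± 154 and 10271 ± 3358 CPM (SD, n = 12 sums). Spdef, a transcription factor of goblet and Paneth cells, had a mean of 0.170 CPM in the cells and 62.9 CPM in all others. Ramp1, a receptor activity-modifying protein, had no UMI in any of the cells' sums and 86.1 CPM in all others. Endoplasmic reticulum folding genes were lower in every sum in 11 of 13 cases, and G2/M genes in 15 of 16. Of 20 ribosomal protein genes, 19 were higher in every sum. Of 9 measured enterocyte genes 5 were lower and 0 higher. The tuft cell list stood apart, with 0 of 7 measured genes higher or lower in every sum and a median log2 ratio of 1.55, which is taken up below with the cells that carry it.

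**Figure D2:**
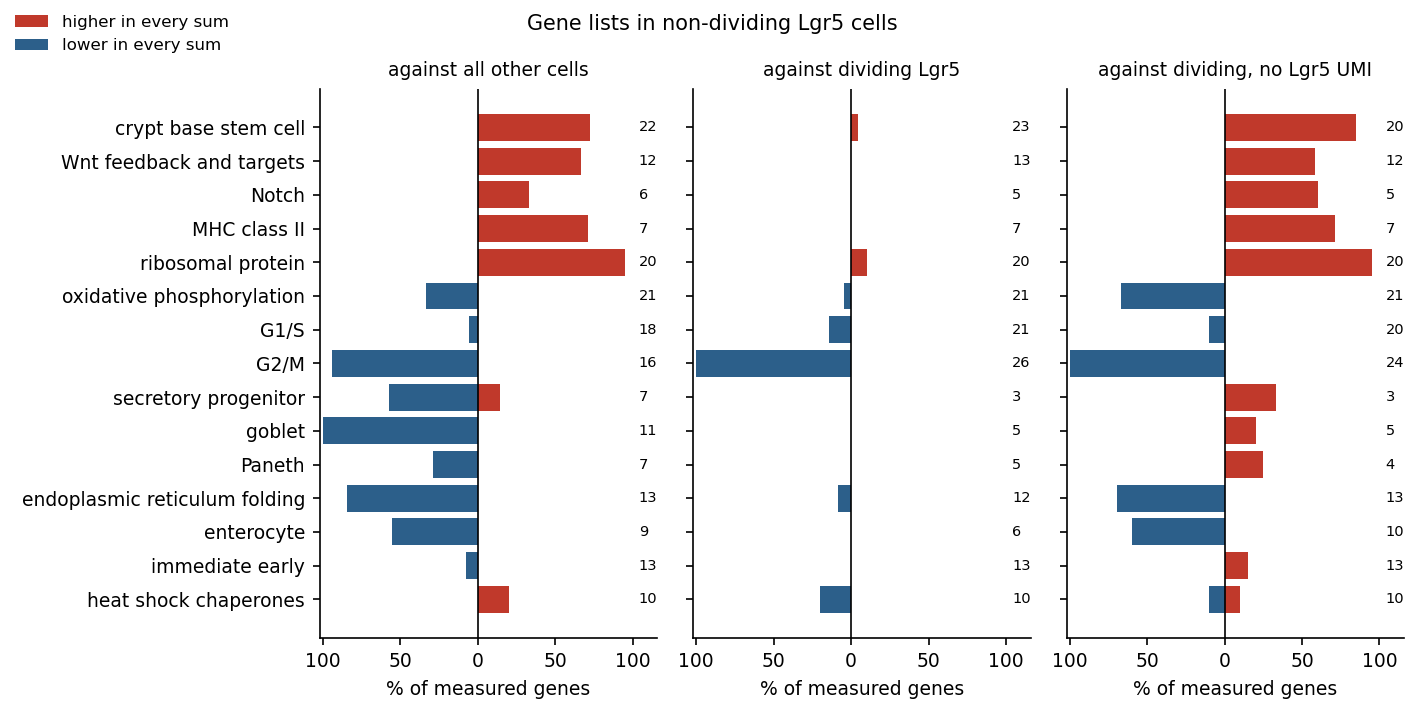
Percentage of each list's measured genes (horizontal axes) that were higher (red, to the right) or lower (blue, to the left) in non-dividing Lgr5 stem cells in every sum of a mouse and gate, against all other cells, dividing Lgr5 cells and dividing cells without Lgr5. The numbers at the right are the measured genes. Crypt base genes were higher in 16 of 22 cases against all other cells and in 1 of 23 against dividing Lgr5 cells, and G2/M genes were lower in 26 of 26 against dividing Lgr5 cells.

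Against dividing Lgr5 cells, which met the same limits but for the cycle genes, fewer genes differed in every sum. Of 6073 genes, 28 (0.461%) were higher and 256 (4.22%) lower in every one of 11 sums. The rule parted these cells by the cycle genes Mki67 and Top2a, so these counts are a description. All 26 measured G2/M genes were lower in every sum, with a median log2 ratio of -4.12, and 0 were higher. Hmmr, a spindle and hyaluronan-binding protein, averaged 0.754 ± 1.31 CPM in the non-dividing and 120 ± 45.4 CPM in the dividing cells, and Nusap1, a spindle protein, 1.63 ± 3.04 and 167 ± 65.2 CPM (SD, n = 11 sums). The G1/S list went less far, with 3 of 21 genes lower in every sum and a median log2 ratio of -0.58. Pcna, the sliding clamp of DNA replication, had a UMI in 58.4% of the non-dividing cells and in 86.1% of the dividing cells, and after thinning in 26.4% and 51.0%. Mcm6, a subunit of the replicative helicase, was found after thinning in 31.0% and 31.9%. Per cell, 3 of the 202 exceeded the dividing cells' median share of G2/M transcripts, and 56 exceeded their median share of G1/S transcripts. Some of the 202 cells carried replication transcripts at the level of dividing cells.

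Of the crypt base list, 1 of 23 genes, Pdgfa, was higher in every sum and 0 lower. It averaged 480 ± 134 CPM in the non-dividing and 303.9 ± 89.8 CPM in the dividing cells (SD, n = 11 sums). Ascl2 averaged 51.5 ± 33.4 and 63.2 ± 19.8 CPM, and was higher in the non-dividing cells in 2 of 11 sums. Mxd4, a MAX-binding repressor that opposes Myc, averaged 64.4 ± 13.4 and 34.4 ± 15.1 CPM, and Maml3, a Notch coactivator, 59.96 ± 29.96 and 34.4 ± 11.7 CPM. None of 13 measured Wnt genes, 7 MHC class II genes or 3 reserve stem cell genes was higher or lower in every sum.

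The same contrast was fitted with edgeR on the 12 sums of at least 10 cells (clones of mice 5, 7 and 8 and control cells of mice 4, 5 and 6, each with both kinds of cell). Of 6835 genes, 583 (8.53%) were called at an adjusted p under 0.05, of which 213 (3.12%) were higher and 370 (5.41%) lower in non-dividing cells. The rule set these cells apart by 2 genes of the same cycle programme, so nothing is read from these counts. All 28 tested G2/M genes and 10 of 21 G1/S genes were among the lower ones, and all 20 ribosomal protein genes and 4 of 23 crypt base genes (Olfm4, Slc12a2, Cdk6 and Pdgfa) among the higher ones. Sp5 was also among the higher ones, the only one called of 13 tested Wnt genes. The largest log2 ratios on the higher side were 1.13 ± 0.23 (SE) for Hpgd, which breaks down prostaglandins, 1.03 ± 0.17 for the adaptor gene Sorbs2, 0.96 ± 0.12 for Ogt, which adds N-acetylglucosamine to proteins, and 0.94 ± 0.19 for the lysosomal protease gene Ctsl. On the lower side they were -6.80 for Aspm, -6.50 for Nusap1 and -6.02 for Hmmr. Ogt had 69.4 to 206 CPM in the cells' sums and 68.3 to 118 CPM in those of dividing Lgr5 cells, so the sums overlapped. Cdkn1b, the inhibitor p27 that holds cells in G1, was lower in the non-dividing cells, with a log2 ratio of -0.67 ± 0.18 (SE).

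Against the 431 dividing cells without Lgr5, 370 of 6057 genes (6.11%) were higher and 735 (12.1%) lower in every one of 11 sums. The rule parted these cells by Lgr5 and by the cycle genes, so these counts and the values that follow are a description. Edn1 averaged 549 ± 301.7 CPM in the cells and 24.9 ± 23.5 CPM in the dividing cells without Lgr5, and Olfm4 6262 ± 934 and 626 ± 419 CPM. Soat1, a sterol acyltransferase, averaged 231 and 19.3 CPM, Cldn4, a tight junction claudin, 82.5 and 6.03 CPM, and Phlda1 237 and 25.4 CPM. Of 20 crypt base genes 17 were higher, and of 24 G2/M genes 24 lower. Cdkn2b, the inhibitor p15, averaged 0.910 CPM in the cells and 60.8 CPM in the dividing cells without Lgr5. Oxidative phosphorylation genes were lower in every sum in 14 of 21 cases; the median mitochondrial share was 6.33% in the cells and 12.4% in the dividing cells without Lgr5, and its part in this was not tested.

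Genes that have been proposed to mark resting or reserve stem cells were looked up in single cells. Hopx, a homeodomain-only protein used as a reserve stem cell marker, had a UMI in 88.1% of the 202 cells and in 89.2% of dividing Lgr5 cells, and after thinning in 61.9% and 52.9%. Lrig1, a feedback inhibitor of growth factor receptors, was found after thinning in 36.0% and 40.1%, Bmi1, a Polycomb gene, in 9.14% and 9.34%, and Tert, the telomerase gene, in 1.02% and 2.72%. Clu, a marker of revival stem cells, had a UMI in 8.91% of the cells (18 of 202, 95% Wilson interval 5.71% to 13.6%) in 8.49% of dividing Lgr5 cells and in 2.93% of all others (2.25% to 3.81%), and after thinning in 6.60%, 2.33% and 1.34%. Gkn3, listed as a crypt base gene, was found in 15.8% of the cells, 11.6% of dividing Lgr5 cells and 2.54% of all others, and after thinning in 6.09%, 3.11% and 0.854%. Cdkn1a, the inhibitor p21, was found in 14.4% of the cells, 21.6% of dividing Lgr5 cells and 44.9% of all others, and after thinning in 5.58%, 6.23% and 24.8%. These intervals cover counting error only, and cells of a mouse are not independent.

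MHC class II genes, which present peptides to CD4+ T cells, were higher than in all other cells in every sum for 5 of 7 measured genes, against 5.45% of all measured genes, and 0 of 7 were higher or lower than in dividing Lgr5 cells in every sum. Cd74, the invariant chain, averaged 1718 ± 609 CPM in the cells and 994 ± 324 CPM in all others, and H2-Ab1 557 ± 279 and 287 ± 111 CPM (SD, n = 12 sums). In the cells, H2-Ab1 had 259, 512, 262 and 748 CPM in clones of mice 5 to 8, and 662, 578, 840, 801, 263, 319, 330 and 1105 CPM in control cells of mice 1 to 8. Clones and control cells of mouse 5 and mouse 7 were low, and those of mouse 8 high. The gates of mouse 6 differed, with 512 CPM in clones and 319 CPM in control cells.

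Other genes varied widely among the 202 cells. Per 10000 gene UMIs of a cell, Edn1 had a median of 3.26 with 0 at the tenth percentile and 17.9 at the ninetieth, and Olfm4 59.3 with 18.6 and 94.0. Reg3g, a secreted antibacterial lectin, had a median of 2.03 and a ninetieth percentile of 16.2, with up to 276 UMIs in a cell. Summed per mouse and gate, Reg3g had 575, 78.2, 88.4 and 822 CPM in clones of mice 5 to 8, and 168, 3955, 724, 1727, 699.7, 164, 103 and 976 CPM in control cells of mice 1 to 8. The high Reg3g sums were those of control mice 2 and 4, and the clone sums lay below them.

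Transcripts of tuft cells, the chemosensory cells marked by the kinase Dclk1 (chr3:55242364-55539068), came from few cells. Of the 202, 5 had at least 2 Dclk1 UMIs, namely 1 clone cell of mouse 8, 1 control cell of mouse 2, 1 of mouse 5 and 2 of mouse 8, with 16, 30, 37 and 30 and 27 Dclk1 UMIs. The 13 tuft genes gave 95 to 205 UMIs in these cells, 0.423% to 1.66% of their gene UMIs, and 11 to 13 of the 13 genes were present. The other 197 cells reached at most 0.113%. The 5 cells had 2 to 5 Lgr5 UMIs but 0 to 2 Olfm4 UMIs and 0 Smoc2 UMIs, and 1 of them, the control cell of mouse 2, had 1 Ascl2 UMI. They met the rule on Lgr5 with few or no UMIs of the other stem markers. Cells with at least 2 Dclk1 UMIs numbered 41 of 1809 among all others and 3 of 259 among dividing Lgr5 cells. Whether the 5 are tuft cells with Lgr5 transcripts or doublets within a mouse was not tested. Results that rest on them are given with and without them.

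**Figure D3:**
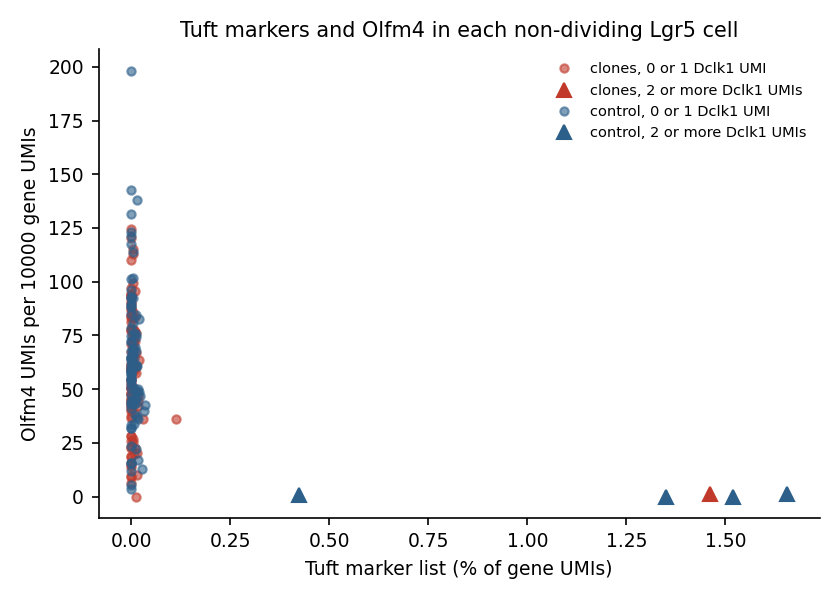
Tuft list share of gene UMIs (percent) against Olfm4 (UMIs per 10000 gene UMIs) in each of the 202 non-dividing Lgr5 stem cells. Triangles are the 5 cells with at least 2 Dclk1 UMIs, which lie at 0.423% to 1.66% with hardly any Olfm4, and circles the other 197, which stay at or below 0.113%.

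The share of these cells was set against the gate, which the rule did not use. At 48 h they made up 50.0% (2 of 4 cells), 16.7% (3 of 18), 4.35% (2 of 46) and 25.0% (2 of 8) of the clone cells of mice 1, 2, 3 and 4, against 3.95%, 5.49%, 3.51% and 11.7% of the control cells of the same mice. At 72 h the clone shares were 25.2% (41 of 163), 16.2% (6 of 37), 18.6% (21 of 113) and 9.62% (33 of 343) in mice 5, 6, 7 and 8, against control shares of 8.50%, 13.4%, 9.76% and 3.83%. The clone share was the higher in each of the 8 mice, while the groups overlapped at both times. The 48 h clones rest on 9 cells, and the 95% Wilson interval of mouse 1 runs from 15.0% to 85.0%.

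**Figure D4:**
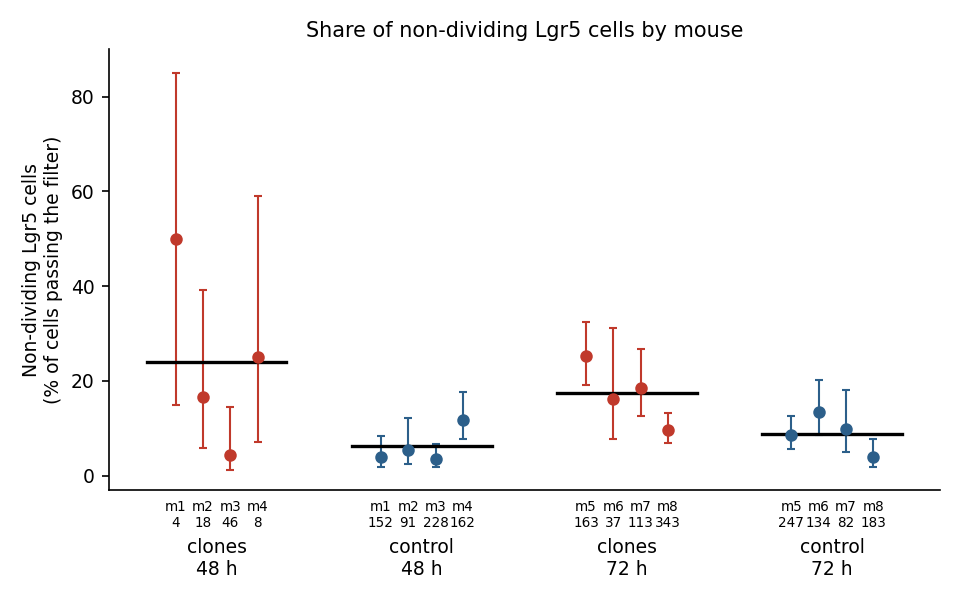
Non-dividing Lgr5 stem cells as percent of the cells that passed (vertical axis) in clones and control cells at 48 h and 72 h. Points are mice with 95% Wilson intervals, black lines are group means, and the numbers beneath give the mouse and the cells that passed. The clone share lies above the control share of the same mouse in 8 of 8 mice, and the 48 h clone intervals are wide.

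Over all mice the share averaged 20.7% ± 13.8 in clones and 7.52% ± 3.88 in control cells (SD, n = 8 mice), a difference of 13.2 percentage points. The exact two-sided permutation test gave p = 0.00699 and an adjusted p of 0.0420 over 6 comparisons (n = 8), and exact sign flips within mice p = 0.0078, the smallest they can give. Thinned to 5000 UMIs per cell the shares were 13.3% and 4.67%, and the adjusted p of the exact permutation test was 0.109. When a mouse was left out, the difference was 8.48 percentage points without mouse 1, the lowest. The adjusted call of the permutation test, which does not use the pairing within mice, was then kept only without mouse 3. The sign flips within mice were not repeated with a mouse left out. At 48 h the shares averaged 24.0% ± 19.3 in clones and 6.17% ± 3.80 in control cells, and at 72 h 17.4% ± 6.41 and 8.88% ± 3.97 (SD, n = 4 mice). Both gave an exact permutation p of 0.0857 with n = 4 mice per group, and an adjusted p of 0.171; the smallest p that 4 against 4 allow is 0.0286. The 72 h clones and the 48 h clones differed by -6.61 percentage points (exact permutation p = 0.629), the control cells of both times by 2.71 (exact p = 0.343), and the clone-control difference changed by -9.32 (exact p = 0.514). The first and the last turned positive without mouse 1.

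Among Lgr5 cells, the part that was non-dividing varied within both gates. It was 56.9%, 66.7%, 42.9% and 32.04% in clones of mice 5 to 8, and 37.5%, 27.8%, 22.2%, 63.3%, 47.7%, 60%, 47.1% and 31.8% in control cells of mice 1 to 8. Clones of mouse 6 lay above every control value, on 6 of 9 cells, and the other clone values inside the control range. The difference was not tested.

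Levels of stem genes within these cells were then compared between clones and control cells. With sums of at least 5 cells (clones of mice 5 to 8, control cells of mice 1 to 8), edgeR's quasi-likelihood test called 0 of 4059 genes (0%), and 108 had an unadjusted p under 0.05; DESeq2 also called 0. All clone sums are of 72 h, so this is the 72 h contrast, and no gene test of 48 h clones or of the change between times could be made. The fit had no mouse block, so the pairing of clones and control cells was not used in it. On the log2 scale the clone-control difference was 0.07 ± 0.14 for Olfm4, 0.27 ± 0.19 for Smoc2, -0.13 ± 0.40 for Ascl2, -0.13 ± 0.19 for Axin2, 0.08 ± 0.31 for Sp5 and 0.31 ± 0.24 for Pdgfa (SE, adjusted p = 1.00 for each in edgeR). Of 22 tested crypt base genes 0 were called and the median was 0.10, and of 12 Wnt genes 0 were called with a median of 0.10, against -0.0025 over all genes. In simulated counts of the same sums, 51.7% of changes of 1 and 97.0% of changes of 2 on the log2 scale were recovered. These counts were drawn independently for each sum, with no mouse, time or pool effect, so the recovered shares hold for that setting only. With the mouse as a block, edgeR called 10 of 5355 genes (0.187%) at 72 h, all lower in clones. They were Dclk1, Sh2d6, Strip2, Lrmp, Fyb, Avil, Espn, Cdhr5, Kctd12 and Eppk1, of which 5 are in the tuft list. In the same blocked fit without the 5 Dclk1-rich cells, 0 genes were called, and the lowest adjusted p was 0.230. With the 48 h control sums kept in the fit, the block called 16 of 5862 genes (0.273%), 14 lower and 2 higher in clones (Hes1 and Gimap1), and without the 5 cells 0, with a lowest adjusted p of 0.0513. Hes1, a Notch target that represses Atoh1, had 777, 1045, 1031 and 860.5 CPM in clones of mice 5 to 8 and 946, 1108, 461 and 385 CPM in control cells of the same mice, so it was higher in clones of mice 7 and 8 and lower in those of mice 5 and 6.

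With sums of at least 10 cells, 6 sums were left, those of clones of mice 5, 7 and 8 and of control cells of mice 4, 5 and 6, and edgeR called 37 of 6159 genes (0.601%), 7 higher (0.114%) and 30 lower (0.487%) in clones. With time and pool as terms, this contrast comes down to clone sums of mice 7 and 8 against control sums of mice 5 and 6, all of pool 1, so gate and mouse cannot be told apart in it. DESeq2 called 5 genes and the fit without mouse 8 called 8. None of the genes named here was called at sums of at least 5 cells, where Tfcp2l1 was not tested without the mouse block. Without the block Hspa1a and Hspa1b turned their sign there, and with it others did as well, as given below. The higher side held Rgcc (log2 difference 2.34), Hspa1a, Hspa1b, Filip1l and Gm19696, among others, and the lower side Zbtb16, Tfcp2l1, Fkbp5, Mmp7, Eif4ebp3, Ddit4, S100a6, Hpgd and Sgk1, among others. At sums of at least 5 cells with the mouse as a block, the log2 difference was 1.59 for Hpgd, 0.78 for Mmp7, 0.61 for Zbtb16 and 0.24 for Sgk1, all positive, and -0.21 for Hspa1a and -0.35 for Hspa1b, with edgeR adjusted p-values of 0.482 for Hpgd and 0.975 to 0.990 for the others. Hspa1a and Hspa1b are heat shock chaperones, Ddit4 restrains mTORC1, Eif4ebp3 restrains translation, S100a6 binds calcium and Tfcp2l1 is a transcription factor gene. Esr1, the estrogen receptor gene, was also called, was below the level set for named genes, and was chosen after its values were seen. It had 23.3, 14.2, 42.8 and 34.7 CPM in clones of mice 5 to 8 and 0 to 25.7 CPM in control cells, and the groups overlapped through control cells of mouse 8. In dividing Lgr5 cells Esr1 had 58.8, 15.1, 28.7 and 34.7 CPM in clones of mice 2, 5, 7 and 8 and 3.96 to 12.1 CPM in control cells of the 8 mice. The share of all genes that part the groups so is not given here, and nothing is read from Esr1. The clone sum of mouse 6 and the dividing clone sum of mouse 2 hold only 6 and 5 cells.

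Several of the lower genes were high in both gates of the same mice. Fkbp5 (chr17:28399094-28517527), a co-chaperone of steroid receptors, had 88.4, 263, 10.7 and 8.16 CPM in clones of mice 5 to 8, and 95.4, 283, 6.88 and 17.1 CPM in control cells of the same mice. In control cells of mice 1 to 4 it had 7.24 to 12.3 CPM. It was thus high in mouse 5 and mouse 6 in clones and control cells alike, and at 17.1 CPM or less in every other sum. A Fkbp5 UMI was found in 28 of 41 clone cells of mouse 5 and 6 of 6 of mouse 6, and in 15 of 21 and 16 of 18 control cells of these mice. In clones of mice 7 and 8 it was found in 4 of 21 and 4 of 33 cells. Zbtb16 (chr9:48654297-48836222), a zinc finger repressor gene, had 34.9, 99.5, 0 and 2.04 CPM in clones of mice 5 to 8 and 60.7, 105, 0 and 0 CPM in control cells of the same mice, and 0 CPM in control cells of mice 1 to 4. Mmp7 (chr9:7692090-7699585), the protease that activates alpha-defensins, had 276, 355, 24.1 and 16.3 CPM in clones and 300.7, 233, 6.88 and 8.56 CPM in control cells of mice 5 to 8, and 0 to 82.8 CPM in control cells of mice 1 to 4. Sgk1, a kinase induced by steroid hormones, had 302.5, 107, 74.98 and 59.1 CPM in clones and 275, 243, 48.1 and 34.3 CPM in control cells of mice 5 to 8.

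Dividing Lgr5 cells, which are other cells of the same mice, were looked up for the same genes. In them Fkbp5 had 87.0 CPM in clones of mouse 5, against 5.88 to 15.2 CPM in those of mice 2, 7 and 8, and 53.4 and 138 CPM in control cells of mice 5 and 6, against 3.41 to 20.7 CPM in the other control sums. Zbtb16 had 41.8 CPM in clones of mouse 5 and 31.7 and 39.4 CPM in control cells of mice 5 and 6, and at most 1.22 CPM elsewhere. Mmp7 had 211 CPM in clones of mouse 5 and 199.8 and 88.7 CPM in control cells of mice 5 and 6, but also 135 CPM in clones of mouse 2 and 89.0 CPM in control cells of mouse 4. Clones and control cells of a mouse were in opposite pools, so the pool did not go with this order. Which property of mice 5 and 6 goes with it is not given in the sources used here and was not tested.

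**Figure D5:**
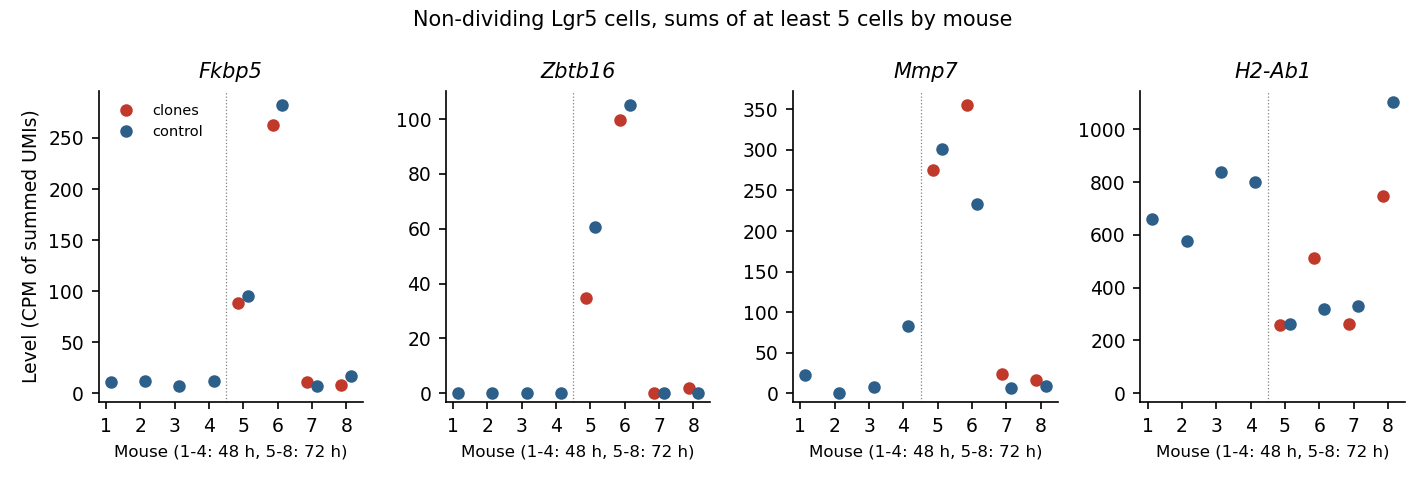
Fkbp5, Zbtb16, Mmp7 and H2-Ab1 in CPM (vertical axes) in non-dividing Lgr5 stem cells by mouse (horizontal axes), clones in red and control cells in blue. Fkbp5, Zbtb16 and Mmp7 are high in both gates of mice 5 and 6, and H2-Ab1 is highest in control cells of mouse 8.

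Between the times, control cells at 72 h (mice 5 to 8) and at 48 h (mice 1 to 4) were different animals, and edgeR called 0 of 4059 genes (0%) with sums of at least 5 cells; 382 had an unadjusted p under 0.05, and DESeq2 called 0. Without mouse 8, which had the highest H2-Ab1 and Cd74 of the 72 h control sums, 4 genes were called, all higher at 72 h. They were Id1, a target of BMP signalling, Ccni, Gm43305 and Hspa1a, named after their values were seen. Id1 had 182, 141, 282 and 111 CPM in control cells of mice 5 to 8 and 33.7, 92.5, 65.2 and 95.1 CPM in those of mice 1 to 4, so the groups did not overlap. The share of all genes parted so is not given here, and nothing is read from it. Hspa1a had 37.6, 3.29, 468 and 25.7 CPM in control cells of mice 5 to 8 and 0, 11.6, 0 and 27.6 CPM in those of mice 1 to 4, so the groups overlapped and mouse 7 stood apart. Cd74 had 1021, 1243, 1244 and 2475 CPM at 72 h and 1627, 1850, 2693 and 2418 CPM at 48 h, a log2 difference of -0.44 ± 0.24 (SE, edgeR adjusted p = 0.585), and the groups overlapped through mouse 8. Olfm4 differed by 0.05 ± 0.14 and Axin2 by 0.25 ± 0.20 (SE) on the log2 scale (edgeR adjusted p = 0.953 and 0.748). Of 22 crypt base and 12 Wnt genes tested, 0 were called, with medians of -0.015 and 0.00055 on the log2 scale, against 0.018 over all genes.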

How the data were processed

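The deposited matrices hold UMI counts per gene and hashtag counts per barcode for 2 pools, made with Cell Ranger 6.1.2 per the submitters' processing notes, on mm10; the deposited barcode and feature tables hold other values (names only), per the file headers. Each barcode was given to the mouse and gate of its top hashtag. UMIs were summed per mouse and gate. Sums of at least 10 cells were compared with edgeR 4.0.16 (quasi-likelihood, TMM, filterByExpr, Benjamini-Hochberg over all genes tested, called at an adjusted p under 0.05), with time and pool as terms and the 11 rule genes left out of tests; the 72 h and control time contrasts could not be fitted so and use sums of at least 5 cells. DESeq2 1.42.0 was an alternative. Described genes had at least 20 CPM on average. Ratios on the log2 scale come from these sums. Shares per mouse were compared with exact permutation tests (scipy 1.17.1). The mouse is the replicate, and clones and control cells came from the same mice, which pairs them by design. Their deviations from the group means correlated at 0.132 to 0.301 within mice 5 to 8. Sums of different mice were not correlated, so these values do not show how much of this goes with the mouse. The fits were tested on simulated counts. Thinning took 5000 UMIs per cell at random. Named genes were the 10 called with the largest log2 change each way at an average log2 CPM of at least 5, the top 3 of each gene list, the crypt base list and, in descriptions, the 10 largest ratios each way; a selection of these is printed, and some are not reported here. The members and lists were chosen with earlier results of these data known. Intervals are 95% Wilson intervals and, like floors of 3 counts, cover counting error only. Promoters are RefSeq, GRCm38.p6; gene positions are GENCODE M21.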

Additional observations from a re-analysis of the deposited data

Results flagged for a closer look

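Among 52 groups of 4 mice each, covering 16 genes and the shares, 6 held a sample far from the others; chance gives about 1 in 20 such groups. Sp5 stood at 89.4 CPM in control cells of mouse 7, against a nearest value of 49.3 CPM in the 72 h control group. Hspa1a stood at 468 CPM in the same cells, with the next at 37.6 CPM. Control cells of mouse 8 had 1105 CPM of H2-Ab1, with the next 72 h control sum at 330.004 CPM, and 2475 CPM of Cd74, with the next at 1244 CPM. Dclk1 stood at 34.7 CPM in clones of mouse 8, with the next at 2.68 CPM, and at 347 CPM in control cells of mouse 2, with the others at 0; both come from the cells with at least 2 Dclk1 UMIs.

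Barcodes outside the filter also met the gene rule. Of 1604 with a mitochondrial share of 20% or more, 93 (5.80%) met it, and of 405 with a top hashtag under 60%, 14 (3.46%) did.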

How the results depend on the processing

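Of the 6 share comparisons only that over all mice was called, and 8 of its alternatives (thinning and 7 of the 8 left-out mice) lost the call while 8 kept it. Mice were left out only in the permutation test, which does not use the pairing within mice. The other 5 comparisons were not called under any alternative, which says nothing about their stability, and 2 of them reversed. The difference between clones and control cells over all mice was 8.66 percentage points after thinning (exact permutation, adjusted p = 0.109) and 8.48 to 14.9 without a mouse; the cause was not tested. Without a mouse, the difference was 8.43 to 23.5 at 48 h and 5.80 to 10.4 at 72 h, the time difference -13.2 to 2.06 in clones and 1.19 to 4.56 in control cells, and the difference of gate effects between times -15.0 to 0.0870; both reversals came without mouse 1. Genes called between clones and control cells numbered 37 with sums of at least 10 cells, 5 with DESeq2, 8 after thinning, 0 with sums of at least 5 cells, and 8 to 52 without a mouse. With sums of at least 5 cells the replicate block called 16. At 72 h, against 0, 14 were called with no filter on low counts, 12 with at least 3 Lgr5 UMIs and 10 with the replicate block. Between times in control cells, 44 were called with no filter and 0 to 4 without a mouse. Non-dividing against dividing Lgr5 cells, 583 were called, 163 after thinning, 297 (without mouse 5) to 584 without a mouse, 757 with the replicate block and 418 with DESeq2. With sums of at least 5 cells, Hspa1a turned to -0.58 and Hspa1b to -0.36. Over 20 named genes of the dividing comparison 252 values kept their call and 18 lost it; over 16 of the gate comparison, 120 and 66. Clones against control cells with a top hashtag of at least 80%, the block with sums of at least 10 cells, and the control times with at least 3 Lgr5 UMIs could not be fitted. Sums of 5 to 41 cells limit the gene tests, and 48 h clones gave 9 cells.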
